A study of Homo sapiens with 4 samples.

Results

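Knockdown of APC was compared with a scrambled control 3 days after transduction, in single-cell RNA-seq of HCEC 1CT cells. This human colonic epithelial line was immortalised with the telomerase gene TERT and the kinase CDK4, and both groups carry these transgenes. One library held cells with a short hairpin RNA against APC (shAPC) and the other held cells with a scrambled hairpin (shScr), both under puromycin (1 μg/ml in the labels, a lower dose in the study's methods) in medium with EGF, hydrocortisone, insulin, transferrin, selenite and 2% serum. A barcode counted as a cell when it held 200 genes or more, 500 UMIs or more (unique molecular identifiers, each counting 1 captured mRNA molecule) and a mitochondrial share under 5%. This left 1116 shScr and 788 shAPC cells, 1904 of the 5982 cells that passed these limits in the 4 libraries of the study. Each group was 1 library of 1 line, which leaves every difference without a replicate check, and no p-value is given. Intervals are 95% and cover counting error within these libraries only.

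APC is the scaffold of the complex that marks beta-catenin for destruction, and its loss is known to release beta-catenin to act with TCF and LEF factors on Wnt target genes. Interferons are secreted after cytosolic sensors detect nucleic acid, and they act through STAT and IRF factors on a broad set of antiviral genes. The integrated stress response slows translation while favouring the transcription factor ATF4 and its targets, among them the CHOP gene DDIT3.

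The shAPC cells were deeper, with a median of 49685.5 UMIs and 6166 genes per cell against 35109 UMIs and 5117 genes in shScr. The summed libraries held 39797418 UMIs for shScr and 34944674 for shAPC. The file headers name Cell Ranger 3.0.2 for shScr and 3.0.0 for shAPC, so program version and hairpin cannot be told apart. Of the kept barcodes, 19 occurred in both libraries, each with 60145 to 183012 UMIs in 1 library (18 times shAPC) and 505 to 729 UMIs in the other. Without these 19 barcodes in either library, 99 genes were at least 2-fold higher and 44 at least 2-fold lower, against 110 and 45 with them.

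The label of a colonic epithelial cell was checked against markers. Of 14 markers of differentiated colonic epithelium, 9 had 0 UMIs in both libraries, among them CDX2, MUC2 and KRT20, and the other 5 had at most 4 UMIs in a library. Of 22 keratin and junction genes of epithelia in general, 3 reached 20 CPM (UMIs per 1000000 UMIs of the library). These were KRT7 at 54.3 CPM in shScr and 87.1 CPM in shAPC, TJP1 at 36.9 and 32.0 CPM and DSG2 at 26.6 and 25.8 CPM. KRT8 had 12.9 and 19.4 CPM, PKP2 14.8 and 19.6 CPM and CLDN7 8.62 and 16.9 CPM, while EPCAM and CDH1 had fewer than 4 UMIs per library. Some genes typical of mesenchymal cells were abundant, with VIM at 5304 CPM in shScr and 4968 CPM in shAPC. Of the listed markers of fibroblasts and pericytes, THY1 had 261 and 213 CPM and DCN 216 and 363 CPM. The other markers in that list were lower, the highest being LUM at 30.8 and 41.7 CPM. PDGFRA had 26.7 and 16.5 CPM, CSPG4 9.62 and 10.9 CPM, and COL14A1 1 UMI in shScr and 0 in shAPC. Blood and immune markers summed to 1.73 CPM in shScr and 3.06 CPM in shAPC, with PTPRC, CD3E, CD3D, MS4A1 and TYROBP at 0 UMIs in both. Endothelial markers summed to 0.352 and 0.458 CPM, with CDH5 at 0. With a single line in both libraries, no cell type that should lack a gene was present to give a background share.

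The knockdown was visible in its target. APC, on chromosome 5 (GRCh38, 112707518 to 112846239, plus strand), had 16.1 CPM in shScr and 5.52 CPM in shAPC, a relative log2 ratio of −1.82 (−2.06 to −1.58). At a matched depth of 10000 UMIs per cell, 15.8% of shScr cells and 3.47% of shAPC cells held an APC UMI. A relative log2 ratio is the log2 of the shAPC over the shScr CPM, minus 0.28, the median over all genes with at least 20 CPM in either library. APC lay under that minimum and is therefore not among the genes counted below.

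Most of the transcriptome lay close to the median gene. Of the 33538 listed genes, 5175 reached 20 CPM in either library, and their relative log2 ratios had an SD of 0.44. For counts and list medians, 1 CPM was added to both levels first, and a gene was counted as higher or lower when it lay at least 2-fold from the median gene on that scale. By this rule 110 genes (2.13%) were higher in shAPC and 45 (0.87%) were lower. The minimum itself favours genes that were higher in shAPC, because 918 genes passed it through shAPC alone and 76 through shScr alone. Among the 4181 genes that passed in both libraries, 35 were higher and 28 lower. The split also moved with the scale, from 71.0% higher among all 2-fold genes to 90.1% (200 higher, 22 lower) without subtracting the median, and to 83.8% (31 and 6) with a minimum of 100 CPM. It was 61.3% (92 and 58) under TMM scaling and 64.6% (95 and 52) under DESeq2 size factors. The plot of ratio against level shows where the named genes fall.

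**Figure D1:**
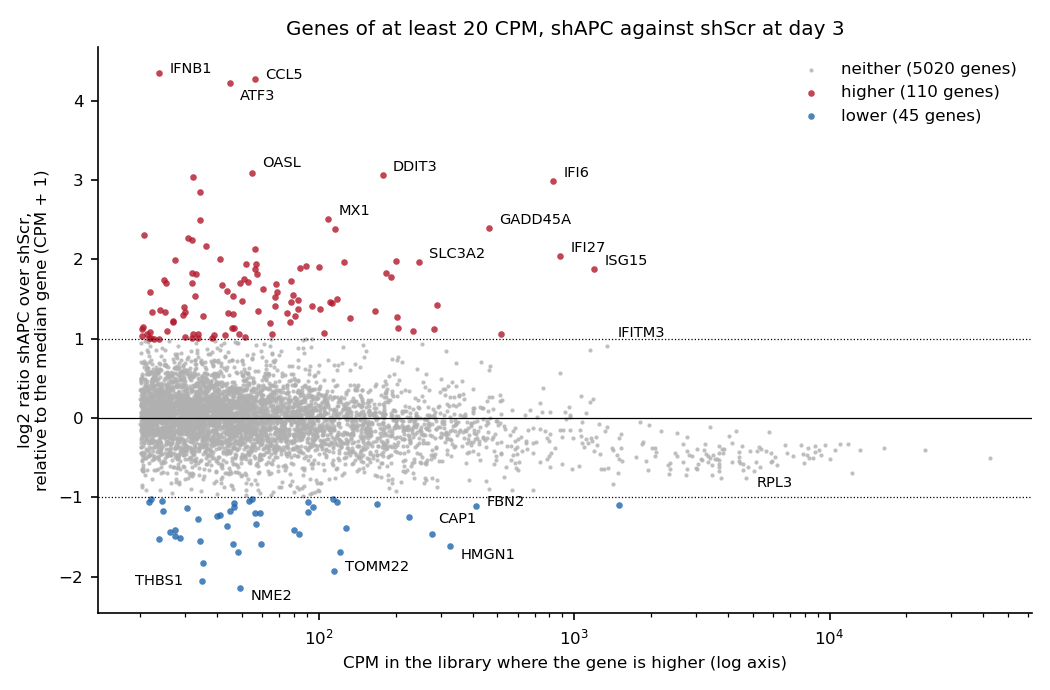
Each point is 1 of the 5175 genes with at least 20 CPM in either day 3 library; the horizontal log axis gives the CPM in the library where the gene is higher and the vertical axis the log2 ratio of shAPC over shScr relative to the median gene, after adding 1 CPM. The 110 genes at least 2-fold higher include IFNB1, CCL5, ATF3 and IFI6, and the 45 at least 2-fold lower include NME2 and THBS1.

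The ratios followed level to some extent. The 220 genes of at least 500 CPM had a median of −0.40, and the 2803 genes of 20 to 50 CPM a median of 0.06. Of the 220, 78 encode ribosomal proteins and 9 are mitochondrial, and the other 133 had a median of −0.29 with 106 below 0. Position and length moved little, with chromosome medians from −0.11 (X) to 0.04 and medians of −0.01 to 0.00 over 3 classes of gene length with about equal numbers of genes. The shortest class held 55 of the higher genes, the middle class 36 and the longest 19.

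Interferon-linked genes, pooled over several lists, were the largest group among the higher genes. Lists of interferons and chemokines, effectors, IFIT and IFITM proteins, nucleic acid sensors, STAT and IRF factors and MHC class I genes together held 32 of the 110 higher genes and none of the 45 lower ones. In that order 4, 27, 6, 11, 9 and 12 members were tested. Over all tested genes 2.13% were higher and 0.87% lower, so lists of this size could hold no lower gene. The effectors led the interferon-linked genes by number. Of 36 effector genes, 27 reached 20 CPM, 16 of these were 2-fold higher, and 26 had a ratio above 0, with a list median of 1.21. Of the 15 effectors that passed the minimum in both libraries, 7 were higher, and the median of all 36 without a minimum was 1.19.

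IFI6, a mitochondrial protein induced by type I interferon, went from 84.9 CPM in shScr to 825 CPM in shAPC, a relative log2 ratio of 3.01 (2.95 to 3.06). ISG15, a ubiquitin-like protein that is attached to other proteins, had 268 CPM in shScr and 1199 CPM in shAPC, a ratio of 1.88 (1.85 to 1.92). At matched depth, 45.0% of shScr cells and 98.1% of shAPC cells held an IFI6 UMI, and 74.9% and 96.2% held an ISG15 UMI. Nearly every shAPC cell thus held both transcripts at this depth. IFI27 had 177 and 884 CPM, and its share of cells was 47.2% in shScr and 92.2% in shAPC. MX1, a GTPase that traps viral nucleocapsids, had 15.0 and 109 CPM and was found in 12.6% and 55.0% of cells. Its paralog MX2 had 4.15 and 34.2 CPM, and BST2, which tethers budding virions to the cell surface, had 2.61 and 20.7 CPM. Of the effectors under 20 CPM, RSAD2 had 10 UMIs in shScr and 274 in shAPC, ISG20 29 and 497, and HERC5 32 and 378.

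Of the 24 effector genes with a promoter in the RefSeq table, 15 held an interferon element and 9 did not. ISG15, IFI6 and BST2 from these 15, and IFIT1 from the IFIT and IFITM list, are shown as genes that hold it. They let the same letters be seen beside the start sites of different genes. Each sequence is RefSeq GRCh38.p14, 250 bases before to 50 bases after the gene's start, 5′ to 3′ on the gene's own strand, and capitals mark matches to GAAANNGAA on either strand, with overlapping matches joined. ISG15 is chr1:1013247-1013546 on the plus strand with 3 matches, IFI6 is chr1:27672143-27672442 on the minus strand with 3, BST2 is chr19:17405581-17405880 on the minus strand with 2, and IFIT1 is chr10:89392373-89392672 on the plus strand with 2. IFNB1, chr9:21077893-21078192 on the minus strand, is the ligand of the pathway and has no match to these letters in this window.
ISG15: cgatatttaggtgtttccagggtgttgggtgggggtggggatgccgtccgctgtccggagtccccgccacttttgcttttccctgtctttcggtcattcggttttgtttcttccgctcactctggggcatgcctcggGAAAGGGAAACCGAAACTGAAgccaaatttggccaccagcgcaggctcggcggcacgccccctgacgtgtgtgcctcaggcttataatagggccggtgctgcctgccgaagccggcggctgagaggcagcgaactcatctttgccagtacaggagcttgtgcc
IFI6: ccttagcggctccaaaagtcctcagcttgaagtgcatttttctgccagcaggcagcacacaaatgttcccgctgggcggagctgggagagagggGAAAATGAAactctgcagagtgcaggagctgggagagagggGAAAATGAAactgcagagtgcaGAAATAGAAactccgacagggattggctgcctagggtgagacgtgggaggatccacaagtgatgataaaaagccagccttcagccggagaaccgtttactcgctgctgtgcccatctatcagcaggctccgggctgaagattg
BST2: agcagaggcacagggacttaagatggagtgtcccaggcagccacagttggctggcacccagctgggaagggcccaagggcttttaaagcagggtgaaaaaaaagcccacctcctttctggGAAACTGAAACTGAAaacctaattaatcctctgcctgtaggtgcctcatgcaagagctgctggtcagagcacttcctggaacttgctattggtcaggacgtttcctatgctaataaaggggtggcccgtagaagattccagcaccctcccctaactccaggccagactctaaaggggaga
IFIT1: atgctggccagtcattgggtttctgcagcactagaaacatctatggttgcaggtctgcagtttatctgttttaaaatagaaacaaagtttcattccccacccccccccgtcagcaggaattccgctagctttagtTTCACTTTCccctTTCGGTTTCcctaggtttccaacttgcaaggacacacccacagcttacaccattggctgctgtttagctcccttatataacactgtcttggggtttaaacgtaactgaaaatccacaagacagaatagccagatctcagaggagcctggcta
IFNB1: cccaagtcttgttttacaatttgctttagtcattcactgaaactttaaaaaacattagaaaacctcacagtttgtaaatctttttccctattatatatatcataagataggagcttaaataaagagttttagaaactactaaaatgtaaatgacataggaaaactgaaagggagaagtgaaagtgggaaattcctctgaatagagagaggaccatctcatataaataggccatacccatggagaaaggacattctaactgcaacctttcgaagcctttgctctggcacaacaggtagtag

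Of the 110 higher genes, 91 had a promoter in the RefSeq table, and 25 of these (27.5%) held GAAANNGAA. The same letters were in 9.01% of the 4339 tested genes with a promoter, in 9.86% of all 27305 genes in the table and in 6.06% (2 of 33) of the lower genes. Within the interferon lists, 15 of 25 higher genes (60.0%) held it, and among the other higher genes 10 of 66 (15.2%). The letters were also common where no gene was higher, with 12 of 66 ribosomal protein promoters (18.2%). The amino acid response element TGATGNAA was in 4 of 18 stress response promoters (22.2%) and 2.65% of tested promoters. The TCF element ATCAAAG was in 3.30% of the promoters of higher genes, none of the 33 of lower genes and 1.98% of tested promoters. Matches to the different motifs were counted separately, on both strands, and a match is a description of the letters only.

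Of 6 tested members of the IFIT and IFITM list 3 were higher, with a median of 1.37, and these were 3 of the 4 tested IFIT genes, whose proteins bind viral RNA. IFIT1 had 41.3 and 200.2 CPM, a relative log2 ratio of 2.00 (1.92 to 2.08), and IFIT3 had 41.7 and 183 CPM, a ratio of 1.86 (1.78 to 1.93). IFIT1 was found in 22.1% of shScr and 69.6% of shAPC cells at matched depth. IFITM3, a membrane protein that hinders viral fusion, was the most abundant member with 591 and 1345 CPM and a ratio of 0.91 (0.89 to 0.93), short of 2-fold.

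Sensors of foreign RNA and DNA were higher in 6 of 11 tested members, all of which passed the minimum through shAPC alone. Over the 5 sensors that passed it in both libraries none was higher, and the median without a minimum was 0.50. OAS1, OAS2 and OAS3 make the messenger that activates RNase L, and they had 5.80, 6.58 and 12.5 CPM in shScr and 36.2, 31.7 and 52.6 CPM in shAPC. The sensor IFIH1 (MDA5) had 4.90 and 27.4 CPM and DDX58 (RIG-I) 6.99 and 23.9 CPM. TMEM173, which encodes the DNA-pathway adaptor STING, went the other way at 46.2 and 29.7 CPM, a ratio of −0.91 (−1.02 to −0.80).

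Among the factors that carry the interferon signal, IRF1 and IRF7 were higher in a list of 9 tested with a median of 0.12, both passing the minimum through shAPC alone. Of the 6 factors that passed in both libraries none was higher, with a median of 0.04. IRF1 had 9.85 and 56.4 CPM, a relative log2 ratio of 2.24 (2.08 to 2.40), and IRF7 had 11.1 and 43.5 CPM, a ratio of 1.69 (1.54 to 1.85). As a mean over cells, IRF1 had a value of 1.27. STAT2 had a smaller ratio of 0.42 (0.32 to 0.51), and for IRF3 the interval of 0.08 (−0.04 to 0.20) included 0. MHC class I genes, which present peptides to T cells, were mostly above the median gene, with 11 of 12 tested members above 0 and a list median of 0.65. HLA-B had a ratio of 1.44 (1.38 to 1.49), HLA-C 1.13 (1.08 to 1.18) and B2M, their shared light chain, 0.86 (0.84 to 0.89). Reads of the similar HLA genes can be shared, which leaves their split uncertain. TAPBP, the tapasin that loads peptides, was the exception at −0.94 (−1.01 to −0.86).

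**Figure D2:**
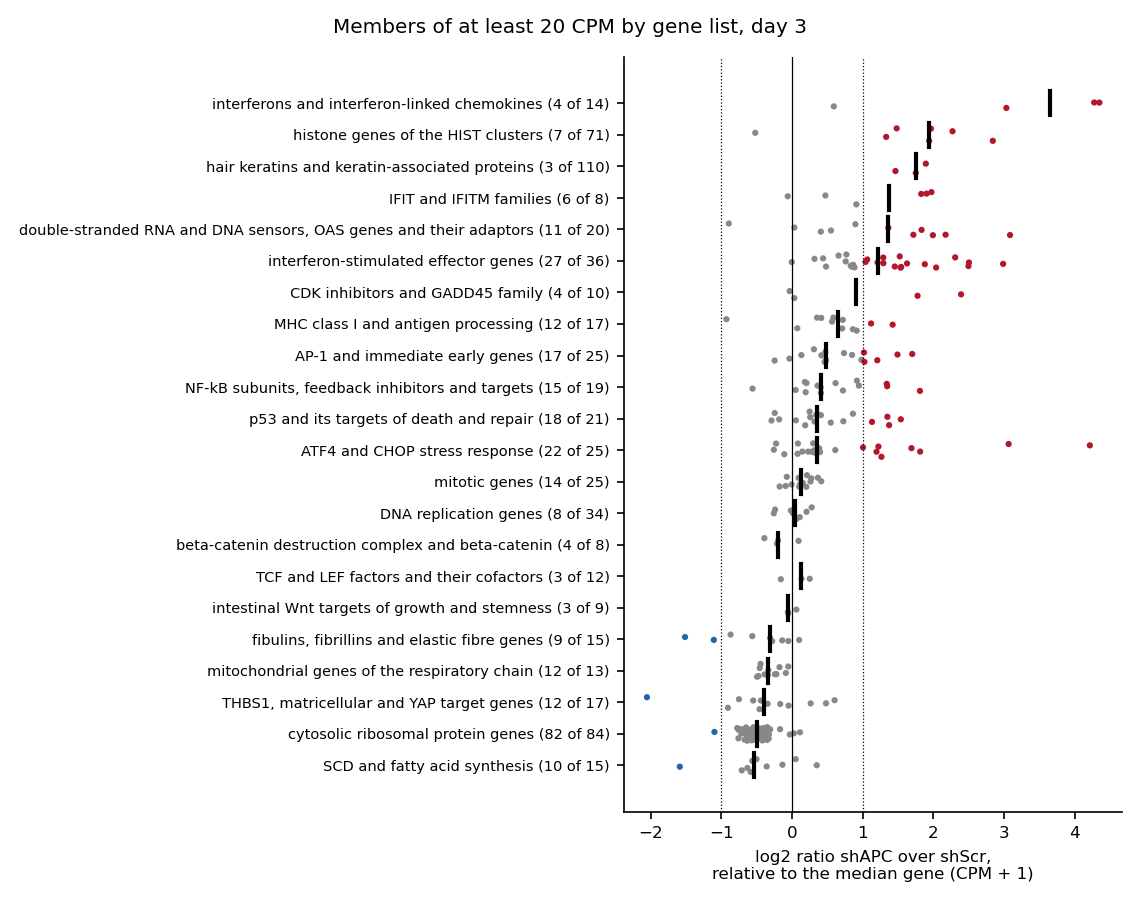
Each point is a member of a gene list with at least 20 CPM in either day 3 library, placed by its log2 ratio of shAPC over shScr relative to the median gene after adding 1 CPM; red and blue mark genes at least 2-fold higher or lower, bars mark list medians and the counts in brackets give tested of listed members. The interferon lists sit right of 0, with an effector median of 1.21, and the ribosomal proteins sit left of it with a median of −0.50.

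Interferon beta itself came from few cells. IFNB1, on chromosome 9 (21077104 to 21077942, minus strand), had 0 UMIs in shScr and 829 UMIs (23.7 CPM) in shAPC. With shScr set to 3 counts this is a 315-fold ratio, without the median gene subtracted. The interval of its relative log2 ratio had a lower limit of 7.72. In shAPC 16 of 788 cells (2.03%, exact binomial interval 1.17 to 3.28) held an IFNB1 UMI. In shScr it was 0 of 1116 cells, which allows a share of cells with a UMI of up to 0.269%. This does not bound the cells that express the gene, since 351 of the 1116 had under 10000 UMIs and the shAPC cells with a UMI had 59911 or more. Of the 16 cells, 3 held 585, 176 and 53 UMIs, 1 held 3 UMIs and 12 held 1 UMI. The 3 high cells had 96804, 100207 and 61129 UMIs in all, and 228, 232 and 419 effector UMIs per 10000 against a median of 33.1 in shAPC.

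The interferon-linked chemokines also came from few cells, in both libraries. CCL5, which attracts T cells, had 1.43 CPM in shScr and 56.1 CPM in shAPC, a relative log2 ratio of 5.02 (4.64 to 5.42), and CXCL10, also a T cell attractant, had 2.34 and 32.1 CPM, a ratio of 3.51 (3.20 to 3.83). The 10 cells with most UMIs of a gene held 99.3% of the shAPC UMIs for IFNB1, 85.9% for CXCL10, 61.5% for CCL5, 64.0% for IFIT2 and 59.4% for OASL. In shScr, from fewer UMIs, it was 90.3% for CXCL10, 89.5% for CCL5, 55.9% for IFIT2 and 62.9% for OASL. The 3 IFNB1-high cells alone held 41.0% of CXCL10, 32.2% of OASL, 28.7% of CCL5 and 28.1% of IFIT2 UMIs. They held 8.98% of ISG15 and 2.53% of IFI6 UMIs, so most UMIs of these effectors lay in other cells. Over the interferons and chemokines list, 3 of 4 tested members were higher with a median of 3.66, also with IFNB1 at its lower limit. All 4 passed the minimum through shAPC alone, and the median without a minimum was 1.11.

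**Figure D3:**
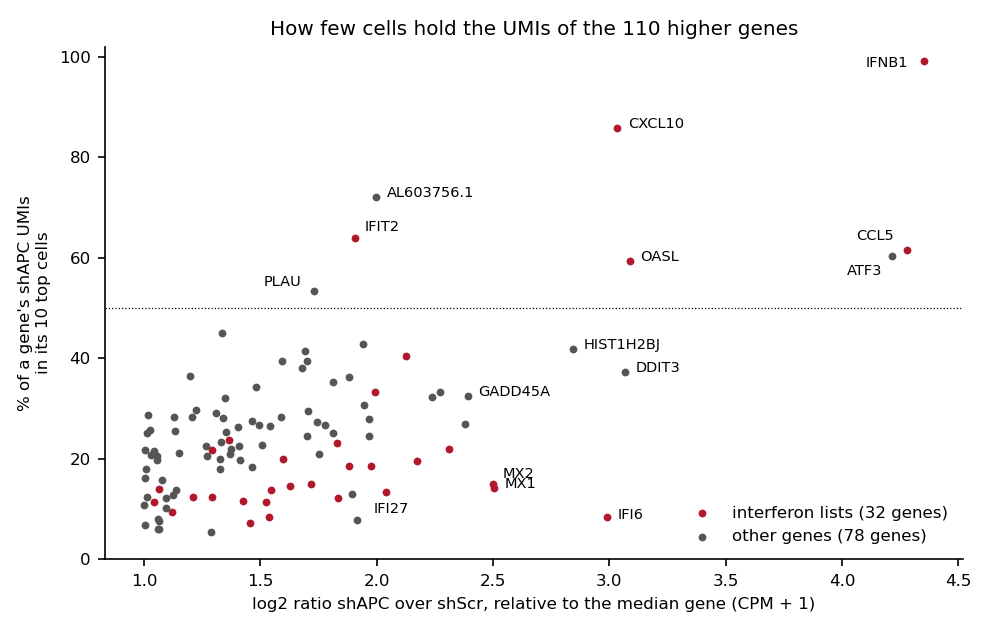
Each point is 1 of the 110 genes at least 2-fold higher in shAPC; the horizontal axis gives the log2 ratio relative to the median gene after adding 1 CPM and the vertical axis the percentage of the gene's shAPC UMIs in its 10 top cells, with a dotted line at 50%. The 8 genes above the line are led by IFNB1 at 99.3%, while IFI6 lies at 8.39% and CDK6 at 7.79%.

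Over the 110 higher genes the 10 top cells held a median of 22.5% of a gene's shAPC UMIs, against 7.78% for genes that were neither higher nor lower and 11.1% for lower genes. In shScr the same medians were 11.7%, 6.03% and 6.56%. The genes above 50% in shAPC were IFNB1, CXCL10, AL603756.1, IFIT2, CCL5, ATF3, OASL and PLAU. AL603756.1, a long noncoding RNA, had 7.66 and 40.9 CPM and a value of 2.00 that was 0.32 as a mean over cells. PLAU, the urokinase gene, named here after its values were seen, had 18.6 and 77.6 CPM. For the 20 highest genes, 78 different cells filled the 200 places, and 11 cells stood among the top 10 for at least 5 genes.

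Stress response genes were the next largest group. Of 22 tested members of the integrated stress response list, 8 were higher and none lower, with a median of 0.35. Of the 13 that passed in both libraries 2 were higher, and the median without a minimum was 0.40. ATF3, a stress-induced repressor, had 1.03 CPM in shScr and 44.7 CPM in shAPC, a relative log2 ratio of 5.16 (4.72 to 5.65). DDIT3, which encodes the death-promoting factor CHOP, had 16.6 and 178 CPM, a ratio of 3.14 (3.03 to 3.26). The pseudokinase TRIB3 had 16.6 and 67.9 CPM, SESN2, an inhibitor of mTORC1 signalling, 12.7 and 57.2 CPM, PPP1R15A, which returns translation, 44.9 and 133 CPM, and the asparagine synthetase ASNS 15.2 and 38.2 CPM. ATF4 itself did not follow, with 183 and 189 CPM, a ratio of −0.23 (−0.28 to −0.18). SLC3A2, the heavy chain of several amino acid transporters, had 51.4 and 247 CPM, while the arginine transporter SLC7A2 was lower at 58.7 and 30.6 CPM.

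Genes of growth arrest and of p53 were split. GADD45A and GADD45B, which answer DNA damage and stress, had 71.8 and 45.6 CPM in shScr and 462 and 193 CPM in shAPC, with relative log2 ratios of 2.41 (2.35 to 2.47) and 1.80 (1.73 to 1.88). Without the 10 cells with most UMIs of each gene, GADD45A had a value of 2.03, and over all settings tried its value ranged from 1.51 to 2.67. The p53 targets PMAIP1 and BBC3, which promote mitochondrial cell death, had 31.7 and 8.57 CPM in shScr and 101.5 and 32.7 CPM in shAPC. CDKN1A, the p21 inhibitor of cyclin-dependent kinases, was at 516 and 639 CPM, a ratio of 0.03 (0.01 to 0.06), and MDM2, the ligase that degrades p53, had a ratio of 0.38 (0.30 to 0.45). In all, 4 of 18 tested p53 targets were higher, with a median of 0.36, and of the 13 that passed the minimum in both libraries 1 was higher, with a median of 0.26. CDKN2B, an INK4 inhibitor under the minimum, had 515 UMIs in shScr and 253 in shAPC, a ratio of −1.11 (−1.34 to −0.89).

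CDK6, a cyclin D-dependent kinase of the G1 phase, was higher across many cells. It had 18.7 CPM in shScr and 88.9 CPM in shAPC, a relative log2 ratio of 1.98 (1.86 to 2.09), and 16.9% of shScr and 54.0% of shAPC cells held a UMI at matched depth. CDK4, which is also the transgene of the line, had a ratio of 0.29 (0.21 to 0.36) and CCND1, the cyclin partner of both, −0.06 (−0.09 to −0.03). Of the cell cycle lists, 14 of 25 mitotic genes (median 0.13) and 8 of 34 replication genes (median 0.04) could be tested. None was 2-fold higher or lower, but at 2.13% and 0.87% of all tested genes, sets this small could hold none. Without a minimum the medians were 0.14 and 0.24, and 19 of the 26 replication genes under it lay above 0.

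Histone genes were higher in 6 of 7 tested members, with a median of 1.94, but 5 of the 7 passed the minimum through shAPC alone and the median without a minimum was 0.19. HIST1H2BJ had 3.07 and 34.3 CPM, a relative log2 ratio of 3.21 (2.94 to 3.49), and HIST1H4H 4.45 and 30.9 CPM. HIST1H4C, the most abundant, had 158 and 133 CPM, a ratio of −0.52 (−0.58 to −0.47). Most histone mRNAs lack a poly(A) tail, and poly(A) capture sees them in part. The hair keratin KRT34 and the keratin-associated KRTAP1-5 and KRTAP2-3, structural proteins of hair, were the 3 members of their list that could be tested and all 3 were higher, with a median of 1.75 that was 0.06 without a minimum. KRTAP1-5 had 17.9 and 84.2 CPM and was found in 12.6% and 37.3% of cells at matched depth. KRT34 had 11.7 and 50.9 CPM and KRTAP2-3, which has near-identical copies and is uncertain for that reason, 32.5 and 111 CPM.

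Smaller groups each held a few higher genes. Of 15 tested NF-kB genes 3 were higher, with a median of 0.41, and of the 10 that passed the minimum in both libraries 1 was higher, with a median of 0.28. It was TNFAIP3, the feedback inhibitor A20, at 53.1 and 166 CPM. Of 17 immediate early genes 5 were higher, with a median of 0.48, and of the 14 that passed in both 2 were higher, while JUN had a ratio of 0.86 (0.79 to 0.93). HMOX1, which degrades heme, had 22.6 and 77.9 CPM and MT1F, a metal-binding metallothionein, 13.9 and 44.2 CPM, while the medians of their lists were −0.22 and −0.20, and 0.05 and 0.07 without subtracting the median gene. The snoRNA host SNHG12 had 17.5 and 116 CPM, a ratio of 2.45 (2.33 to 2.57). Among higher genes in no list, named after their values were seen, HES1 had 10.1 and 41.8 CPM and HES4 11.8 and 49.3 CPM, both of them repressors that Notch signalling can induce. INHBA, a subunit of activin A, had 89.98 and 234 CPM and was found in 43.4% and 68.2% of cells.

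Wnt genes gave little that this depth could measure. None of the 11 tested members of the destruction complex, feedback, TCF and growth target lists was 2-fold higher or lower. With 2.13% higher and 0.87% lower over all tested genes, a set this small could hold none. Of 14 feedback genes only DKK1 was tested, and 4 of the 6 others with at least 4 UMIs lay above 0. CTNNB1, which encodes beta-catenin, had 83.1 and 86.8 CPM, a relative log2 ratio of −0.21 (−0.29 to −0.14). MYC had 53.04 and 67.3 CPM, with an interval of −0.02 to 0.15 around 0.07. The Wnt antagonist DKK1 was at 118 and 91.7 CPM, a ratio of −0.63 (−0.70 to −0.57). The feedback gene AXIN2 had 14 UMIs in shScr and 57 in shAPC, a ratio of 1.94 (1.08 to 2.90) at levels far under the minimum. In the same list TNFRSF19 had 15 and 48 UMIs, NKD1 1 and 12, ZNRF3 111 and 136, NOTUM 1 and 4 and APCDD1 4 and 1. Of the members under the minimum with at least 4 UMIs, 4 of 9 in the TCF list lay above 0. In the growth target list it was 1 of 5, ASCL2 with 3 and 17 UMIs. All 5 tested BMP and ID genes lay below 0, and 7 of the 10 under the minimum with at least 4 UMIs lay above 0. ID1 and ID3, targets of BMP signalling, had ratios of −0.33 (−0.38 to −0.27) and −0.76 (−0.80 to −0.71).

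**Figure D4:**
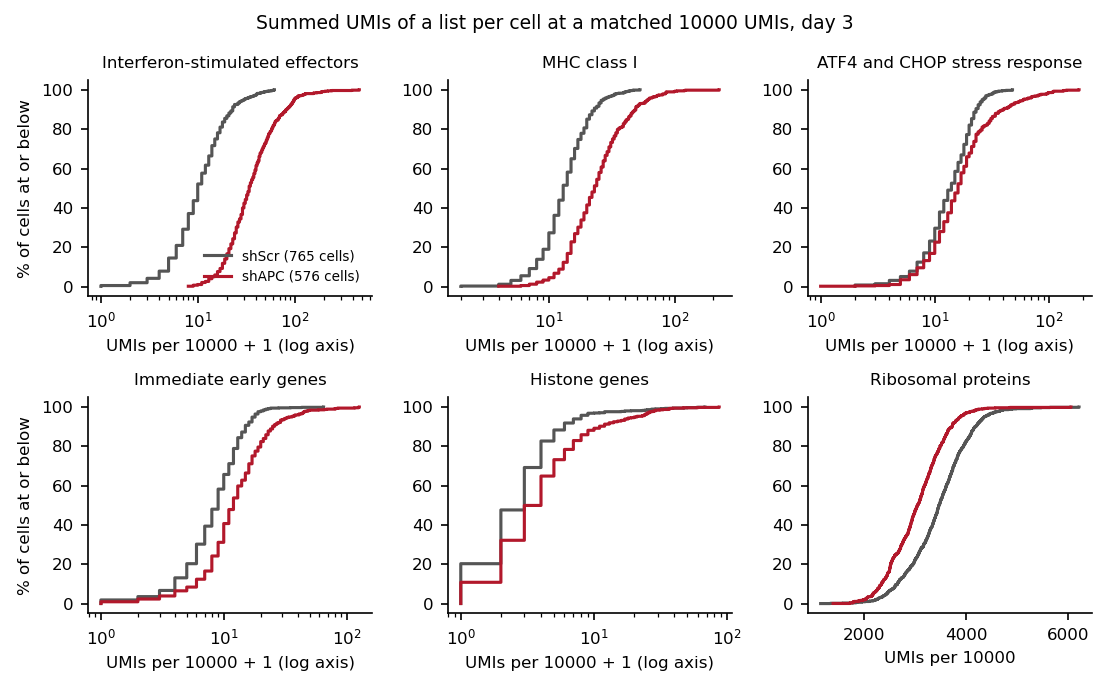
Each panel gives, for the 765 shScr and 576 shAPC cells with at least 10000 UMIs, the percentage of cells (vertical axis) at or below a summed level of a gene list per 10000 UMIs (horizontal axis, log after adding 1 for all lists but the ribosomal proteins). The whole shAPC curve of the effector genes is shifted right, from a median of 9 to 33 UMIs, whereas the stress response curves part mainly in the upper tail.

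Cells were then compared at 10000 UMIs each, which left 765 shScr and 576 shAPC cells and set aside 351 and 212 shallower ones. The effector genes summed to a median of 9 UMIs in shScr and 33 UMIs in shAPC, and 57.6% of shAPC cells (53.5 to 61.7) lay above the 95th percentile of shScr. Stress response genes had medians of 13 and 15 UMIs and 95th percentiles of 25 and 59 UMIs, with 18.9% of shAPC cells above that of shScr. Effector levels were thus shifted in most cells and stress levels in a minority. Immediate early genes had 24.8% of shAPC cells above, the CDK inhibitors and GADD45 genes 16.3%, histones 14.1% and MHC class I 36.1%. Of the 109 shAPC cells above the shScr 95th percentile for stress genes, 100 (91.7%, 84.9 to 96.2) were also above it for effector genes, and of the other 467 it was 232 (49.7%, 45.1 to 54.3). Median effector levels of these 109 and 467 cells were 62 and 29 UMIs. The overlap was not particular to stress genes. Over the other lists compared, it ran from 74.8% of cells above for immediate early genes to 92.9% of those above for NF-kB genes.

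Levels were also read by depth of the cell. In shAPC cells of 10000 to 30000, 30000 to 60000 and over 60000 UMIs, all thinned alike, the mean stress level was 16.6, 15.9 and 26.5 UMIs, against 12.5, 13.8 and 14.5 UMIs in shScr. Median stress levels were 10, 14 and 17 UMIs in shAPC and 11, 12 and 14 UMIs in shScr. By median the shallowest shAPC cells were therefore not above shScr. The CDK inhibitors and GADD45 genes averaged 14.1, 12.03 and 20.1 UMIs in shAPC and 10.4, 10.4 and 10.6 UMIs in shScr. Effector means were 58.8, 37.4 and 47.8 UMIs in shAPC and 12.3, 11.6 and 11.4 UMIs in shScr. Both groups of genes thus varied with depth in shAPC, the stress genes highest in the deepest cells and the effectors in the 37 shallowest. The part of very deep barcodes, which can hold more than 1 cell, in the stress levels was not tested beyond leaving out the 5% deepest, where 72 genes were higher and 37 lower and 68 of the 110 genes stayed higher.

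**Figure D5:**
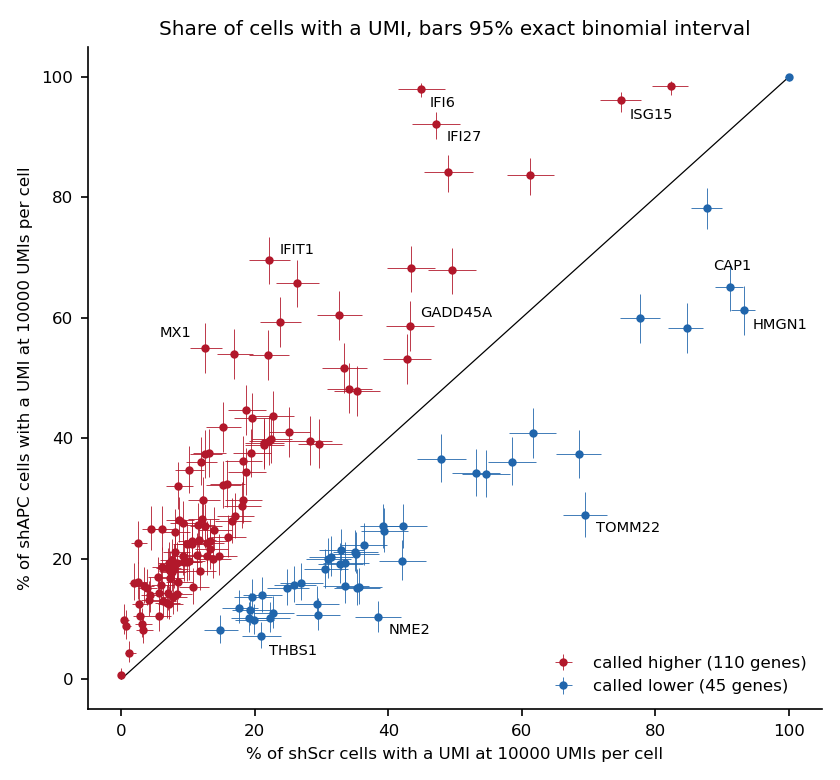
Each point is 1 of the 110 higher (red) or 45 lower (blue) genes, placed by the percentage of shScr cells (horizontal axis) and of shAPC cells (vertical axis) that held at least 1 UMI at 10000 UMIs per cell, with 95% exact binomial intervals. IFI6 moves from 45.0% to 98.1% and MX1 from 12.6% to 55.0%, above the line of equal shares, while TOMM22 moves from 69.5% to 27.3%.

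Shares of cells followed the summed levels. For 107 of the 110 higher genes the interval of the share in shAPC lay above that in shScr at matched depth, the exceptions being IFNB1, ASNS and KLF4. For 44 of the 45 lower genes it lay below. These shares come from the same UMIs by which the genes were chosen and add no separate measurement. No such count was made over all tested genes.

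Of the 45 lower genes 11 were in a list, against 73 of the 110 higher genes and 709 of the 5175 tested genes. The lists were written with earlier results of these data known, so these shares describe the lists and test nothing. NME2, a nucleoside diphosphate kinase on chromosome 17, had the lowest ratio, with 49.1 CPM in shScr and 12.8 CPM in shAPC, a relative log2 ratio of −2.22 (−2.37 to −2.07). Its share of cells was 38.4% and 10.2%. The neighbouring and closely similar NME1 had 224 and 266 CPM, a ratio of −0.03 (−0.07 to 0.01), and reads of the pair can be assigned to either, which leaves NME2 uncertain. TOMM22, a receptor of the mitochondrial import pore, had 115 and 35.8 CPM, a ratio of −1.96 (−2.05 to −1.87), while the 7 tested import genes had a median of −0.15 and TOMM22 was the 1 that was lower. HMGN1, which binds nucleosomes, had 326 and 128 CPM and was found in 93.3% and 61.3% of cells. CAP1, which recycles actin, had 276 and 121 CPM and was found in 91.2% and 65.1% of cells.

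Other lower genes stood singly or in pairs in their lists. THBS1, the matrix protein thrombospondin 1, had 34.8 and 9.42 CPM, a relative log2 ratio of −2.16 (−2.34 to −1.99), in a matricellular list of 12 with a median of −0.39. FBN2, which encodes fibrillin 2, had 413 and 232 CPM, a ratio of −1.11 (−1.15 to −1.07), and EFEMP1, or fibulin 3, had 28.5 and 11.5 CPM. The tetraspanin CD9 had 48.3 and 17.5 CPM and the crosslinking enzyme TGM2 43.7 and 20.1 CPM. The lipid genes SCD, the desaturase that makes oleate, and SCP2, a sterol carrier, had 46.2 and 59.2 CPM in shScr and 18.0 and 23.3 CPM in shAPC. Over 10 tested fatty acid genes the median was −0.53, and with a minimum of 100 CPM it was 0.02. The acute-phase protein SAA1 had 121 and 44.7 CPM, with 33.7% and 32.4% of its UMIs in 10 cells, and over the settings tried its value ranged from −1.77 to −0.80. The kinase MAP2K1 (MEK1) had 34.3 and 13.6 CPM, the cytokine IL18 23.6 and 9.33 CPM, and the chemokine CXCL5 83.3 and 36.0 CPM.

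Cytosolic ribosomal protein genes were lower as a group by a small step. Of 82 members 80 lay below 0, with a median of −0.50. Over all tested genes 2587 of 5175 lay above 0, a split that subtracting the median sets. Other abundant genes lay low too. The 133 of at least 500 CPM that are neither ribosomal nor mitochondrial had a median of −0.29, with 106 below 0. The ribosomal protein genes summed to 35.0% of UMIs in shScr and 30.1% in shAPC. Of the 82, 1 was past 2-fold. RPL3 had 4716 and 3374 CPM, a ratio of −0.76 (−0.77 to −0.75). Per cell at matched depth, ribosomal proteins had medians of 3465 and 3041.5 UMIs. The group median kept its sign under every setting tried but moved from −0.59 to −0.23. The 12 tested mitochondrially encoded respiratory genes were all below 0, with a median of −0.34, and of −0.06 without subtracting the median gene. Per cell at matched depth, a scale without the median gene subtracted, these genes had medians of 352 UMIs in shScr and 373 UMIs in shAPC. In cells of 10000 to 30000, 30000 to 60000 and over 60000 UMIs, the shScr medians were 280.5, 366 and 353 UMIs. Those of shAPC were 325, 393 and 344.5 UMIs, so the deepest class was not above shScr. Cells were chosen by their mitochondrial share, which was 3.47% and 3.37% of summed UMIs after that choice.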

How the data were processed

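Gene by cell tables of UMI counts from 10x 3′ libraries, deposited by the authors, were used as deposited. The labels name alignment with STAR in Cell Ranger 3.0.2 to GRCh38, and per the file headers the counts of shAPC come from version 3.0.0. The labels give a v2 kit and retrovirus, the study's methods a V3 kit and lentivirus. Counts were summed over kept cells of each library and divided by the library total, and log2 ratios had the median of genes of at least 20 CPM subtracted. Single genes carry an exact conditional binomial interval for the ratio of 2 counts, and the floor was 3 counts. Shares used cells thinned to 10000 UMIs. The 1 library per group gave no test. No doublet caller was run, and leaving out the 5% deepest cells stood in for it. Genes named are APC, the 20 highest and 20 lowest ratios, and members of 60 fixed gene lists with at least 4 UMIs, giving those 2-fold apart and the most abundant. Members and lists were chosen with earlier results of these data known. Calls and thinning were tested on simulated data. Alternatives used edgeR 4.0.16 (TMM) and DESeq2 1.42.0 (size factors) in R 4.3.3, for scaling only. Python 3.11.15 with numpy 2.4.6, scipy 1.17.1 and pandas 2.3.3 did the rest, with gene positions from GENCODE 44 and promoters from RefSeq. Fractions of UMIs from free RNA were not estimated. Results for some genes are not reported here.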

Additional observations from a re-analysis of the deposited data

Results flagged for a closer look

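Barcodes removed for a mitochondrial share of 5% or more enter no comparison above, and they too differed between the libraries. In the 259 removed shAPC barcodes (5563644 UMIs), interferon effector genes summed to 3170 UMIs per 1000000 (3124 to 3217, exact Poisson), against 1315 (1282 to 1348) in the 355 removed shScr barcodes (4739858 UMIs). Interferons and their chemokines summed to 41.16 UMIs per 1000000 (36.0 to 46.9) in the removed shAPC barcodes and 24.9 (20.6 to 29.8) in those of shScr. IFNB1 had 2 and 0 UMIs there. Stress response genes were not above the control level, at 1346 UMIs per 1000000 in shAPC and 1401 in shScr. These intervals cover counting error only, each group is 1 library, and no outlier could be looked for among single libraries.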

How the results depend on the processing

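Each group was 1 library, so no library could be left out, and no paired analysis was possible because the labels number no replicates within a group of 1. Differences of hairpin, virus, preparation and depth between the 2 libraries cannot be told apart. Of 1397 values for 99 named genes under the alternatives, 1396 kept their sign, the exception being IFNB1 at −0.015 without its 10 top cells. IFNB1 lay under the minimum and has no value without the 5% deepest cells.

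Without subtracting the median, 200 genes were higher and 22 lower, and the medians were 1.49 for effectors, 0.63 for stress genes and −0.23 for ribosomal proteins. With no minimum above 4 UMIs the counts were 261 and 81 of 17002 genes and the ribosomal median −0.45. With a minimum of 100 CPM they were 31 and 6 of 1143 genes, with medians of 2.11, 0.48 and −0.36. Without the 5% deepest cells, 72 genes were higher and the ribosomal median was −0.38. The effector median was 1.02 with a pseudocount of 5 CPM, 1.10 with all barcodes and with a mitochondrial limit of 10%, 1.07 as a mean over cells and 1.06 with totals that leave out mitochondrial and ribosomal protein genes. In the same order the ribosomal median was −0.47, −0.48, −0.48, −0.34 and −0.52. It was −0.59 under TMM and −0.57 under size factors. In alternatives added after the data were seen it was −0.47 without each gene's 10 top cells, −0.47 without the shared barcodes and −0.49 without the cells holding an IFNB1 UMI. Without the 10 top cells 94 genes were higher, 92 of them among the 110, and 49 lower, and without the IFNB1 cells 96 were higher, 93 of them among the 110, and 44 lower. Thinned to 2000 UMIs, 45.8% of shAPC cells lay above the shScr 95th percentile for effector genes. The cause of these shifts was not tested.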
